A study of Homo sapiens with 8 samples.

Results

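The genes described here encode 4 sets of cell-guidance proteins: the semaphorins, their plexin and neuropilin receptors, the ephrins, and the Eph receptor tyrosine kinases. The families were chosen with earlier results of these data known, and within them genes were taken by symbol alone. The symbol had to start with SEMA plus a digit, PLXN, EPHA or EPHB plus a digit, EFNA or EFNB, or be NRP1 or NRP2. It also had to be the only gene symbol of a probe set. That gave 46 genes of the 11963 measured: 18 semaphorins, 8 plexins, 2 neuropilins, 8 ephrins and 10 Eph receptors. Another 7 protein-coding genes with such names in RefSeq (EPHA6, EPHA8, EPHA10, EPHB2, PLXNA4, SEMA4B and SEMA5B) were not analysed here.

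All RNA came from A375P, an established human melanoma line, on 8 single-colour Affymetrix arrays. Lentivirus had brought 1 short hairpin RNA into each stable population. In 4 control arrays the hairpin was shGFP or shScr, and in 4 knockdown arrays it was hairpin 65 or hairpin 66 against PGC1α, with 2 arrays for each of the 4 hairpins. Puromycin selection lasted 48 h in every group and RNA was taken 48 h after it. Hairpin and selected population are the same thing in this design, so their effects cannot be told apart.

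Semaphorins are secreted or membrane-bound ligands that steer cell movement by binding plexins, whose cytoplasmic part acts on small GTPases and the cytoskeleton. Most secreted class 3 semaphorins also need a neuropilin, which has no signalling domain of its own and also binds VEGF. Ephrins are anchored to the membrane, the A type by a lipid and the B type by a transmembrane segment, and signal on cell contact through Eph receptor kinases. These families guide the neural crest, from which melanocytes arise.

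Of the 46 genes, 10 rose with the PGC1α hairpins and 0 fell. NRP1, a co-receptor, rose 4.01-fold and its ligand SEMA3A 2.30-fold; the ephrin EFNA5 followed at 1.59-fold. The other 7 (EPHA4, PLXNB2, EPHA2, SEMA3E, SEMA3G, SEMA4F and PLXNA3) rose 1.16-fold to 1.36-fold. Over all genes, limma (Benjamini-Hochberg adjusted p under 0.05) called 22.2%, with 11.6% higher and 10.7% lower. The members' share called, 21.7%, lay close to that background, while all 10 calls were in the upward direction. At an unadjusted p under 0.05, 14 members were higher and 1, SEMA6A, was lower, against 16.7% and 16.6% of all genes. The median log2 change of the 46 was 0.04, against a median near 0 (-0.005) for all genes, and 28 of 46 changes were above 0. In 9 members all 4 knockdown arrays lay above all 4 control arrays and in 1, SEMA6A, all lay below, against 13.9% and 13.6% of all genes.

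**Figure D1:**
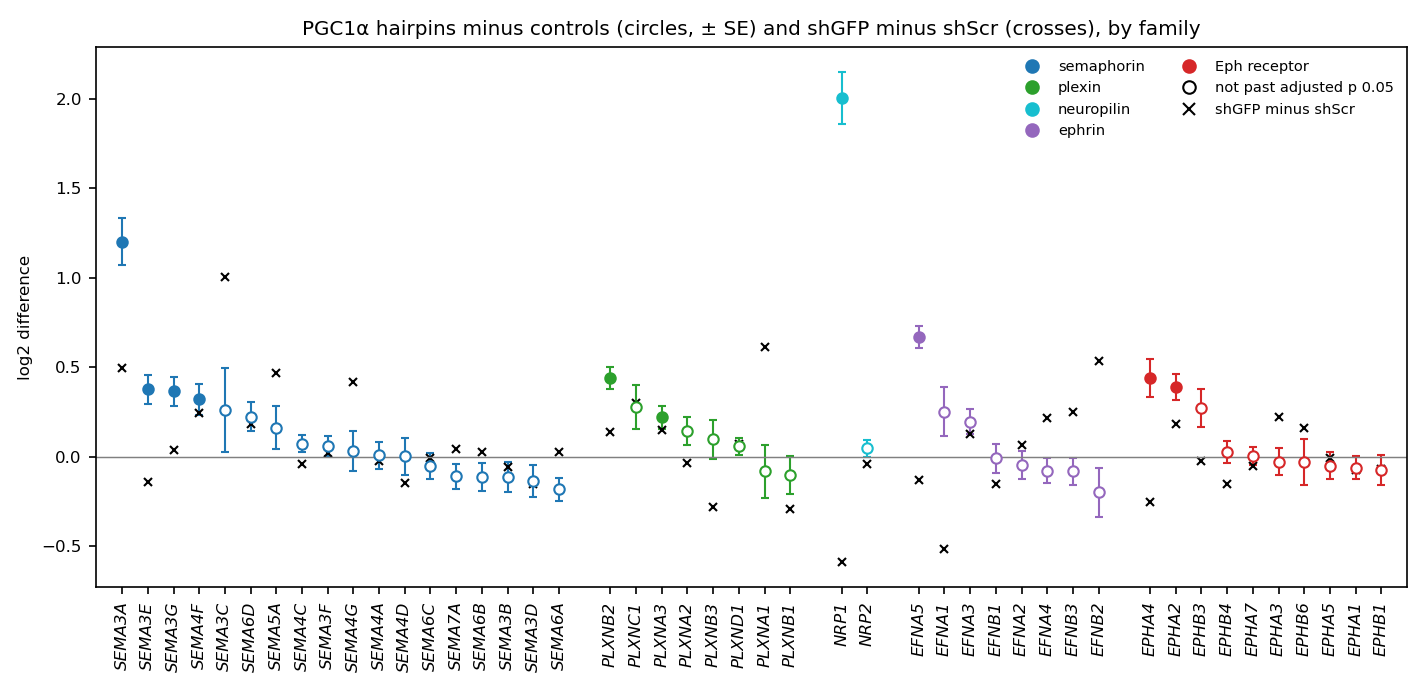
Log2 difference (vertical axis) for each of the 46 genes, grouped by family: circles show PGC1α hairpins minus controls with the standard error (n = 4 arrays in each arm), filled where the adjusted p was under 0.05, and crosses show shGFP minus shScr (n = 2 in each). NRP1 at 2.0 and SEMA3A at 1.20 stand above the other members, all filled circles lie above 0, and the cross of SEMA3C lies at 1.01.

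The target itself checked the labels. With the control hairpins PPARGC1A, which encodes PGC1α, averaged 556 ± 11.7, and with the PGC1α hairpins 125 ± 13.9 (SD, n = 4 in each arm; exact two-sided permutation p = 0.0286, the smallest that 4 against 4 allow). The permutations in this paragraph treat the 8 arrays as independent, although each arm holds 2 hairpins with 2 arrays each. Their p-values may therefore be too small. Of 11 melanocyte markers, MITF, TYR, SOX10, S100B, PMEL and PAX3 had signals above the low-signal mark defined below, whereas MLANA, OCA2, GPR143, SLC45A2 and TYRP1 did not. The summed signal of the 11 was 18965 to 20476 over the control arrays and 14942 to 16159 over the knockdown arrays; 4 of the 11 fell and 1 rose. MITF, the master regulator of melanocytes, fell by 0.59 on the log2 scale (limma adjusted p = 5.10e-05), as did PMEL, S100B and TYRP1 by 0.45 to 1.31, whereas the lineage factor SOX10 rose by 0.17 (adjusted p = 0.0465) and TYR and PAX3 did not pass. For TYRP1 the change of -1.09 was smaller than the difference between the control hairpins, 1.35 for shGFP minus shScr (limma adjusted p = 0.00110). The ACTB 3′ minus 5′ log2 difference, a measure of RNA quality, averaged 2.19 ± 0.18 and 2.53 ± 0.11 for controls and knockdown (SD, n = 4 in each; exact two-sided permutation p = 0.0286), so it moved with the arms. The GAPDH 3′ minus 5′ log2 difference averaged 0.168 ± 0.026 and 0.176 ± 0.021 for controls and knockdown (SD, n = 4 in each). For GAPDH the exact two-sided permutation p was 0.571, so a shift between the arms was seen with ACTB only. Array medians lay between 137 and 142. Summed over 11 blood cell markers, 1 of them above the mark, the signal spanned 405 to 426 on control arrays and 411 to 432 on knockdown arrays, and that of 8 endothelial markers, none of them above the mark, was 252 to 289 and 283 to 312. For 12 fibroblast markers, 5 of them above the mark, it was 1460 to 2261 and 1888 to 2009, and for 13 epithelial markers, 4 of them above the mark, 3370 to 3903 and 4121 to 4496. KRT18, which rose from a mean of 2619 to 3322, made up most of that epithelial sum. Of the 13 epithelial markers, 2 rose, KRT18 and DSP (346 to 465), and 1 fell, ESRP1 (345 to 121). The part of RNA quality and of these markers in the members' changes was not tested. A fit with the ACTB difference as a covariate is given with the members below. That difference ran from 1.97 to 2.34 in the controls and from 2.41 to 2.65 in the knockdown, without overlap. The fit therefore cannot separate RNA quality from the hairpins.

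Many members had low signal. In the absence of detection calls, genes typical of distant tissues (such as those for albumin, insulin and prolactin) served as a rough mark: 32 of them had a median signal of 25.6, and their 90th percentile was 73.0. The 3 probe sets for the bacterial control TrpnX read 13.4 to 19.1. Of the 46 members, 26 had a mean signal above 73.0, as did 7980 of the 11963 genes, and 8 of the 10 that rose were among those 26. The share called among these 26 members, 30.8%, was that of all genes above the mark, 30.8% in either direction. SEMA3E and SEMA3G were the 2 that rose from below the mark. Probe sets differ in how strongly they respond, so a signal is no measure of one gene's abundance against another's.

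**Figure D2:**
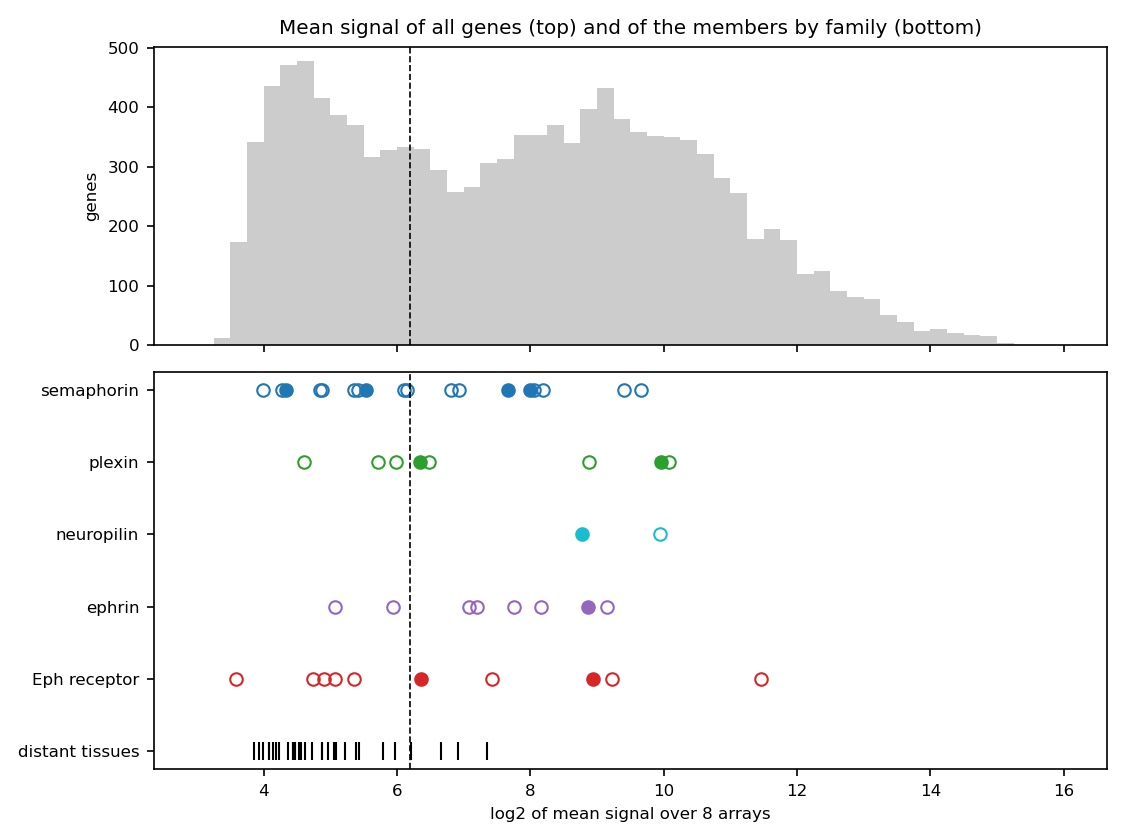
Histogram of the log2 mean signal over 8 arrays for all 11963 genes (top) and the same value for each member by family (bottom; filled circles, rose with the PGC1α hairpins; open circles, did not pass the test), with genes of distant tissues as ticks. The dashed line marks a signal of 73.0, which 26 of the 46 members exceed.

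Promoter sequence is shown for EFNA5, PLXNB2 and EPHA2, which among the members that rose and have a single start had the 3 smallest p; they are shown as examples of members that rose. Starts and sequences are those of the RefSeq promoter table (GRCh38.p14), which had no entry for NRP1 or SEMA3A. The windows are the 250 bases before the start, 5′ to 3′ on the gene's strand. Capitals mark 5 motifs on either strand: the GC box GGGCGG, the E-box CANNTG, the cAMP response element TGACGTCA, the AP-1 site TGANTCA and AAGGTCA, a half-site bound by oestrogen-related receptors, nuclear partners of PGC1α. EFNA5 lies at chr5:107670938-107671187, PLXNB2 at chr22:50301670-50301919 and EPHA2 at chr1:16156070-16156319, all on the minus strand.
EFNA5: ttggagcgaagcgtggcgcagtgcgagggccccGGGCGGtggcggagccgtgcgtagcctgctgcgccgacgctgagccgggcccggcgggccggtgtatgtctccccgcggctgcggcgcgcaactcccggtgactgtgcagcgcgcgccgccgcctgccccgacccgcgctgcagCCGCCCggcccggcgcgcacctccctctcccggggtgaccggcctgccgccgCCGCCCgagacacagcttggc
PLXNB2: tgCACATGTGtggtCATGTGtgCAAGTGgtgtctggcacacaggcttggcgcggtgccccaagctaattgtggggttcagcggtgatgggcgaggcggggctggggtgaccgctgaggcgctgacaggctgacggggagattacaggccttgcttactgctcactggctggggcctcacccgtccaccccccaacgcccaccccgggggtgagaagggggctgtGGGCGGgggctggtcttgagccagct
EPHA2: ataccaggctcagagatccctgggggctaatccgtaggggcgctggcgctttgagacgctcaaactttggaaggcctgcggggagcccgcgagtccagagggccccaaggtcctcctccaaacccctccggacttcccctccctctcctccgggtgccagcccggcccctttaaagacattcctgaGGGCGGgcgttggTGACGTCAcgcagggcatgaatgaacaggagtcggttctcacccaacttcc
The EFNA5 window held 3 GC boxes and 41 CpG pairs, with 79.6% G and C. The PLXNB2 window held 4 E-boxes, 2 of them overlapping, and 1 GC box, and the EPHA2 window held 1 GC box and 1 cAMP response element.

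The table held 62 start windows for 41 members. A GC box stood in 75.8% of those windows and in 42.6% of all 35116 windows, with a median G and C content of 65.0% and 58.0%. The E-box stood in 48.4% of member windows and 61.8% of all, and the cAMP response element in 4.8% and 1.6%. The AP-1 site stood in 1.6% and 6.6%, and the half-site in 1.6% and 3.4%. Of 8 members that rose and had a window, 7 held a GC box in at least 1 of them, 4 an E-box, 1 the cAMP response element, and 0 the AP-1 site or the half-site. Counted in the same way over all 41 members, 38 held a GC box, 23 an E-box, 3 the cAMP response element, 1 the AP-1 site and 1 the half-site. These matches describe letters only.

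Among the ligands, 4 of 18 semaphorins rose and 0 fell, and 3 of those 4 belong to the 7 measured genes of the secreted class 3. SEMA3A (Entrez gene 10371), which repels growing axons and binds NRP1, read 170 and 195 with shGFP, 123 and 135 with shScr, 323 and 349 with hairpin 65, and 369 and 369 with hairpin 66. Every knockdown array lay above every control array, and shScr was the lowest hairpin. The arms averaged 156 ± 32.7 and 353 ± 21.7 (SD, n = 4 in each), a log2 change of 1.20 (SE 0.13, limma adjusted p = 1.82e-04). The log2 change was 0.95 against shGFP alone and 1.45 against shScr alone (adjusted p = 1.11e-04 and 2.59e-05). SEMA3A has 1 probe set, and its call stood in all 23 alternatives, with adjusted p up to 0.0235 (with the ACTB covariate).

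SEMA3E, which binds PLXND1 without a neuropilin, read 15.7 and 17.7 with shGFP and 18.8 and 18.0 with shScr. It read 23.6 and 19.8 with hairpin 65 and 24.6 and 23.3 with hairpin 66. The arms did not overlap, but all 8 values lay in or near the TrpnX range, far under the low-signal mark. Its log2 change was 0.38 (SE 0.08, limma adjusted p = 0.00861). SEMA3G, another secreted semaphorin, read 46.1 and 36.1 with shGFP, 37.8 and 42.0 with shScr, 49.9 and 53.3 with hairpin 65, and 54.6 and 50.1 with hairpin 66. The arms did not overlap, and the log2 change was 0.36 (SE 0.08, limma adjusted p = 0.00898), also under the mark. With the ACTB difference as a covariate, the log2 change of SEMA3E was 0.28 (SE 0.14, adjusted p = 0.349), and that of SEMA3G was larger than without it, 0.53, with a wider error (SE 0.12, adjusted p = 0.0518). Against shScr alone SEMA3E did not pass (0.0538), nor with the arrays of each hairpin averaged first (limma adjusted p = 0.0674). Without hairpin 66 neither passed (0.100 and 0.0769), and SEMA3G did not without hairpin 65 (0.0701).

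SEMA4F, a transmembrane semaphorin, read 185 and 208 with shGFP and 155 and 177 with shScr. It read 243 and 227 with hairpin 65 and 214 and 218 with hairpin 66, so the arms were separated by a narrow gap. The log2 change was 0.32 (SE 0.09, limma adjusted p = 0.0249), and it was 0.20 against shGFP alone (adjusted p = 0.101) and 0.44 against shScr alone (adjusted p = 0.00733). The call ended without shScr replicate 2 (adjusted p = 0.0529), hairpin 65 replicate 1 (0.0721) or hairpin 65 replicate 2 (0.0609). It also ended when hairpin 65 (0.195) or hairpin 66 (0.0764) was left out and when replicate arrays were averaged first (0.134). With the ACTB covariate the log2 change was 0.35, as large as without it, with a wider error (SE 0.15, adjusted p = 0.273). Counting these and the fit against shGFP alone, the call ended in 8 of 22 alternatives. A second SEMA4F probe set, at 54.9 in the controls and under the mark, gave a log2 change of 0.22 (limma over all probe sets, adjusted p = 0.0673). The mean of both gave 0.27 (adjusted p = 0.00536).

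SEMA3C, a secreted ligand of both neuropilins, moved between the controls more than between the arms. It read 1058 and 975 with shGFP, 512 and 499 with shScr, 841 and 894 with hairpin 65, and 863 and 834 with hairpin 66. All 4 knockdown arrays lay between the control hairpins. Against both controls the log2 change was 0.26 (SE 0.24, limma adjusted p = 0.501). Against shScr alone it was 0.76 (adjusted p = 1.09e-04) and against shGFP alone -0.24 (adjusted p = 0.0245). The sign of its difference therefore turned with the control used. A second SEMA3C probe set, with a control mean of 36.6, gave a log2 difference of 0.45 between shGFP and shScr (limma over all probe sets, adjusted p = 0.0504).

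Several of these genes are neighbours. SEMA3C, SEMA3E, SEMA3A and SEMA3D lie in that order on chromosome 7, with 3 protein-coding genes between the first pair and 0 between the others. Of these, SEMA3A and SEMA3E rose, while SEMA3D, at 16.5 ± 1.05 and 15.1 ± 1.85 (SD, n = 4 in each arm), read 13.4 to 17.4 over the 8 arrays, about the level of the TrpnX probe sets.

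The other 13 semaphorins did not pass the test. Among them, SEMA4C, a transmembrane ligand of PLXNB2, had signals of 662 ± 17.4 and 696 ± 23.0 (SD, n = 4 in each arm; log2 change 0.07, adjusted p = 0.337), and SEMA3F, which prefers NRP2, 261 ± 3.69 and 273 ± 16.5 (log2 change 0.06, adjusted p = 0.501). The remaining 11 ran from -0.18 for SEMA6A (adjusted p = 0.0666) to 0.22 for SEMA6D (adjusted p = 0.0743). SEMA6A, a transmembrane ligand of A plexins, read 43.5, 48.1, 46.4 and 43.6 in the controls and 43.2, 40.8, 36.9 and 39.2 in the knockdown. Its arms separated by less than 1 unit of signal, all of it under the mark. SEMA3B, SEMA3D, SEMA4A, SEMA4D, SEMA4G, SEMA6D and SEMA7A were also under the mark.

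Among the receptors for semaphorins, NRP1 (Entrez gene 8829) rose more than any other member. It read 144 and 139 with shGFP, 204 and 223 with shScr, 641 and 724 with hairpin 65, and 746 and 681 with hairpin 66. The lowest knockdown array was well above the highest control array. The arms averaged 177 ± 42.2 and 698 ± 46.8 (SD, n = 4 in each), a log2 change of 2.0 (SE 0.15, limma adjusted p = 1.86e-05). It was 4.92-fold higher than with shGFP alone and 3.27-fold higher than with shScr alone, with adjusted p of 9.28e-07 and 1.61e-05.

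The size of the NRP1 change depended on the probe set. The 3 NRP1 probe sets gave log2 changes of 2.0, 0.86 and 0.18, with control means of 177, 121 and 15.0. The second rose too (limma over all probe sets, adjusted p = 2.40e-04); the third, near the TrpnX range, did not pass (adjusted p = 0.256). The mean over its probe sets rose by a log2 of 1.01. The call stood in all 23 alternatives, with adjusted p up to 0.00628; with the ACTB covariate it was 0.00588.

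NRP2, the other neuropilin, did not pass. It averaged 975 ± 34.2 with the control hairpins and 1006 ± 7.07 with the PGC1α hairpins (SD, n = 4 in each arm; log2 change 0.05, SE 0.05, limma adjusted p = 0.553). Its 5 probe sets differed in sign, from -0.25 to 0.19 in log2 change. The lowest of these passed on its own (adjusted p = 0.0315, over all probe sets), from 381 ± 33.3 to 320 ± 10.7.

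Of the 8 plexins, 2 rose and 0 fell. PLXNB2, a receptor for class 4 semaphorins, read 873 and 903 with shGFP, 821 and 794 with shScr, 1192 and 1196 with hairpin 65, and 1065 and 1144 with hairpin 66. No knockdown array reached down to the control range. The log2 change was 0.44 (SE 0.06, limma adjusted p = 8.13e-04) with the probe set used. Its second probe set, at 36.1 in the controls, gave -0.21 (adjusted p = 0.238 over all probe sets), and the mean of both gave 0.11 (adjusted p = 0.282). With the ACTB covariate the log2 change was 0.45, as large as without it, with a wider error (SE 0.11, adjusted p = 0.0573).

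PLXNA3, a receptor that pairs with neuropilins, read 78.6 and 78.5 with shGFP, 74.9 and 67.2 with shScr, 84.5 and 93.4 with hairpin 65, and 85.4 and 84.4 with hairpin 66. The gap between the arms was smaller than the distance between the 2 arrays of shScr or of hairpin 65, and the log2 change of 0.22 (SE 0.07) had a limma adjusted p of 0.0387. That call ended in 14 of 22 alternatives. Among them were leaving out shScr replicate 1 (adjusted p = 0.0707) or 2 (0.0810), hairpin 65 replicate 1 (0.0654) or 2 (0.0971), and hairpin 66 replicate 1 (0.0705) or 2 (0.0605). The replicate block gave 0.0592, the ACTB covariate 0.515 (log2 change 0.17, SE 0.12), and the range over alternatives was 0.0268 to 0.515.

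PLXNA1, which also pairs with neuropilins, read 1335 and 1376 with shGFP, 875 and 900 with shScr, 1086 and 1070 with hairpin 65, and 988 and 1007 with hairpin 66. The knockdown arrays lay between the control hairpins, with a log2 change of -0.08 (SE 0.15, limma adjusted p = 0.765). It was -0.39 against shGFP alone (adjusted p = 0.00315) and 0.22 against shScr alone (adjusted p = 0.0426). Its second probe set, at 322 in the controls, gave log2 differences of -0.01 between shGFP and shScr and 0.05 between the arms, neither past the test. PLXND1, the receptor for SEMA3E, had signals of 460 ± 15.9 and 479 ± 9.63 (SD, n = 4 in each arm; adjusted p = 0.437). PLXNB1, PLXNB3, PLXNC1 and PLXNA2 had log2 changes of -0.10 to 0.28, none past the test, and the last 3 were under the mark.

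**Figure D3:**
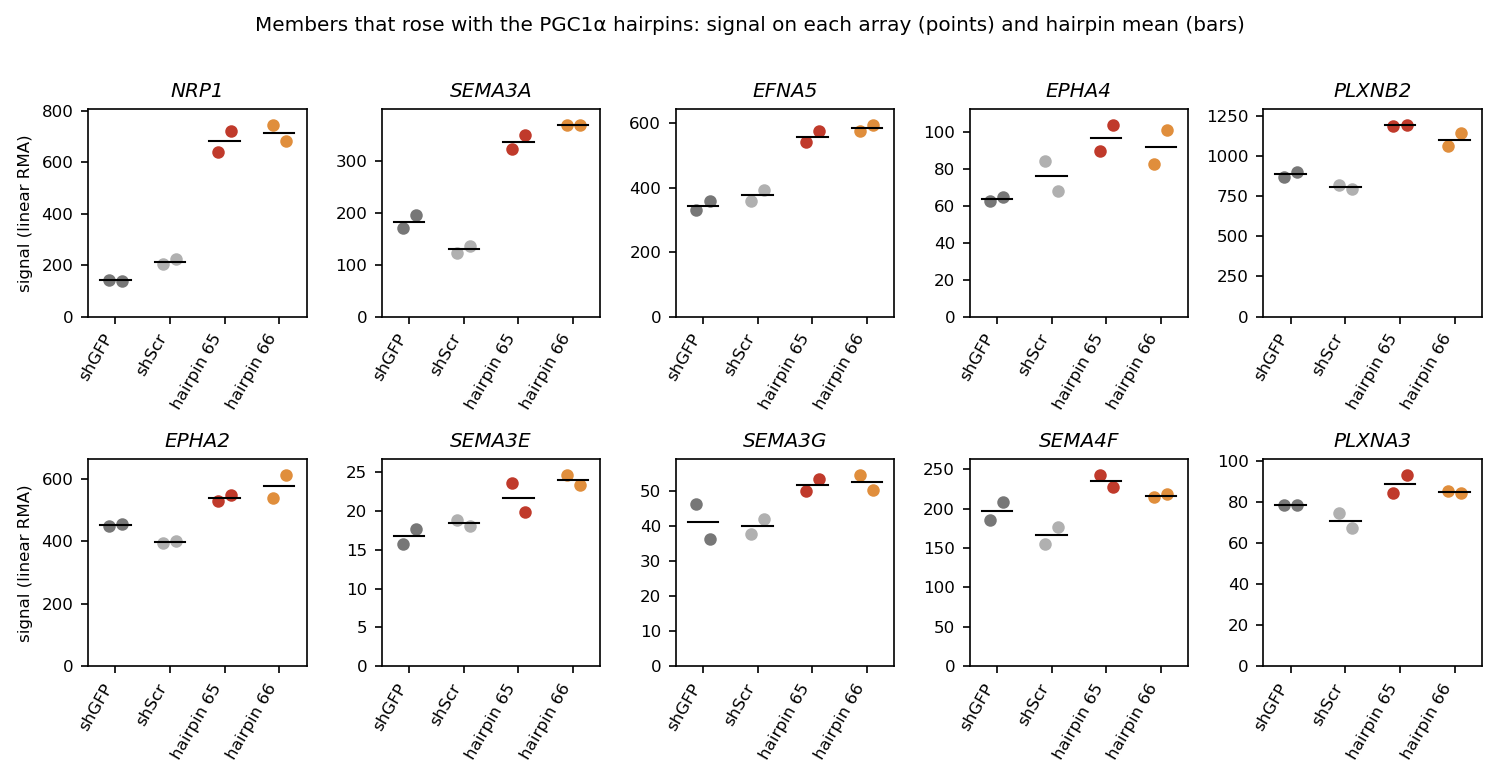
Signal on a linear scale (vertical axis, from 0) of the 10 genes that rose, on each of 2 arrays for each of 4 hairpins (points), with the mean of each hairpin (bars). NRP1 goes from at most 223 in the controls to at least 641 in the knockdown and SEMA3A from at most 195 to at least 323; in EPHA4 the arms overlap.

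Among the contact ligands, 1 of 8 ephrins rose and 0 fell. EFNA5 (Entrez gene 1946), a lipid-anchored ephrin that binds several A receptors and EPHB2, read 329 and 358 with shGFP and 360 and 392 with shScr. It read 542 and 575 with hairpin 65 and 575 and 596 with hairpin 66. The knockdown arrays were all above the controls, and the log2 difference of shGFP from shScr, -0.13, did not pass the test (limma adjusted p = 0.361). The arms averaged 360 ± 25.4 and 572 ± 22.0 (SD, n = 4 in each), a log2 change of 0.67 (SE 0.06, limma adjusted p = 6.51e-05). A second EFNA5 probe set, at 29.2 in the controls, gave a log2 change of -0.01, and the mean of both gave 0.33. The call stood in all 23 alternatives, with adjusted p up to 0.0170 (with the ACTB covariate).

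EFNA1, a ligand of EPHA2, read 435 and 425 with shGFP, 627 and 605 with shScr, 665 and 667 with hairpin 65, and 559 and 568 with hairpin 66. Hairpin 65 lay above every control array and hairpin 66 between the control hairpins. The log2 change was 0.25 (SE 0.14, limma adjusted p = 0.242) over both arms, 0.51 against shGFP alone (adjusted p = 0.00462) and -0.01 against shScr alone (adjusted p = 0.971). EFNA3 (log2 change 0.20, adjusted p = 0.0740) and EFNA4 (-0.08, adjusted p = 0.493), which lie beside EFNA1 on chromosome 1, did not pass. EFNB2, a transmembrane ligand of EPHB4, read 161 and 183 with shGFP, 126 and 112 with shScr, 121 and 132 with hairpin 65, and 127 and 117 with hairpin 66. The shGFP arrays alone stood apart, and the log2 change over both arms was -0.20 (SE 0.14, limma adjusted p = 0.362). EFNB1 and EFNB3 had log2 changes of -0.01 and -0.08 and EFNA2 -0.05, of which EFNB1 and EFNA2 were under the mark.

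Of the 10 Eph receptors, 2 rose and 0 fell. EPHA2 (Entrez gene 1969), a receptor for A ephrins often studied in melanoma, read 449 and 457 with shGFP, 397 and 402 with shScr, 531 and 548 with hairpin 65, and 538 and 614 with hairpin 66. The arms did not overlap. The log2 change was 0.39 (SE 0.07, limma adjusted p = 0.00356), and it was 0.30 and 0.48 against shGFP and shScr alone, both past the test (adjusted p = 0.0199 and 0.00339). With the ACTB covariate the log2 change was 0.47, larger than without it, with a wider error (SE 0.12, adjusted p = 0.0713). With the arrays of each hairpin averaged, adjusted p was 0.0632.

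EPHA4, which binds ephrins of both types, read 62.2 and 64.4 with shGFP, 84.3 and 67.7 with shScr, 89.7 and 104 with hairpin 65, and 82.6 and 101 with hairpin 66. It was the 1 member of the 10 whose arms overlapped, since 1 shScr array exceeded 1 array of hairpin 66. The log2 change was 0.44 (SE 0.11, limma adjusted p = 0.0155), and it was 0.31 against shScr alone (adjusted p = 0.120). The call also ended when hairpin 65 (0.119) or hairpin 66 (0.0596) was left out, when replicate arrays were averaged first (0.0643) and with the ACTB covariate (0.407), where the log2 change was 0.34 (SE 0.19).

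The other 8 Eph receptors did not pass. EPHA3, a receptor for A ephrins, differed between the arms by less than the SD of either arm, with 2841 ± 254 and 2781 ± 171 (SD, n = 4 in each; log2 change -0.03, SE 0.07, limma adjusted p = 0.842). EPHB4, the receptor for EFNB2, had 595 ± 36.4 and 606 ± 28.2 (adjusted p = 0.814). EPHB3 read 149, 159, 168 and 146 in the controls, 165 and 162 with hairpin 65, and 206 and 225 with hairpin 66; only hairpin 66 stood above all controls (log2 change over both arms 0.27, adjusted p = 0.105). Its second probe set, from 64.9 ± 2.35 to 86.1 ± 6.81, passed (log2 change 0.41, limma over all probe sets, adjusted p = 0.00194). EPHA1, EPHA5, EPHA7, EPHB1 and EPHB6 were under the mark, with log2 changes of -0.07 to 0.00.

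**Figure D4:**
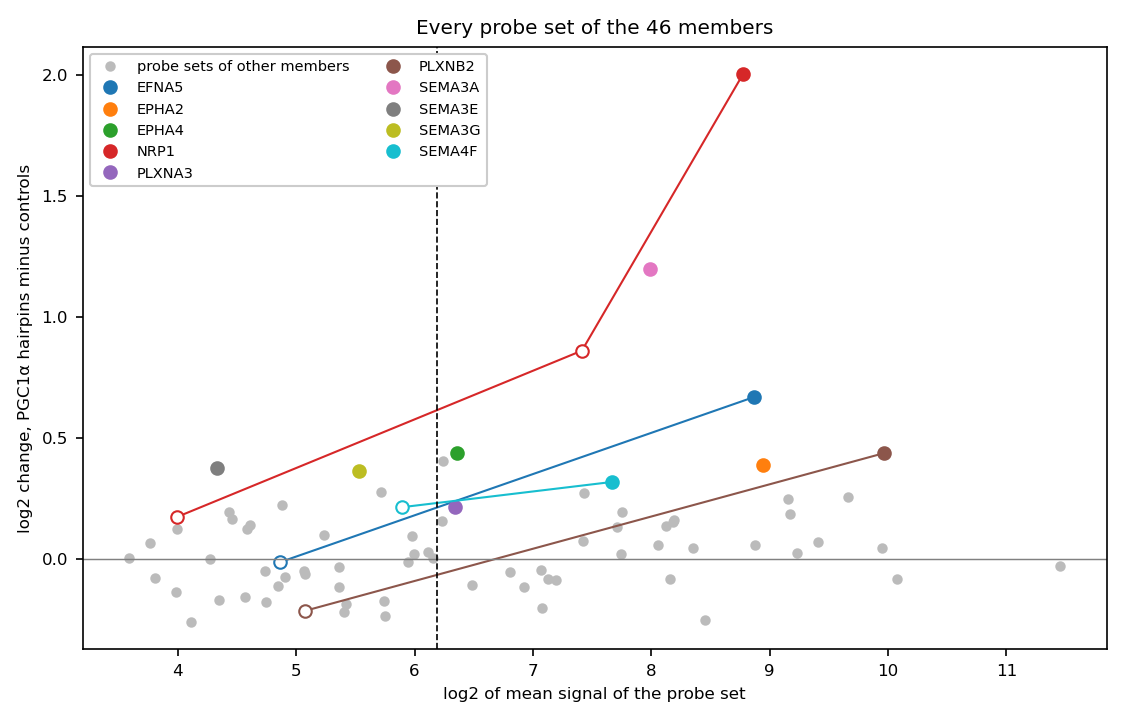
Log2 change, PGC1α hairpins minus controls (vertical axis), against the log2 mean signal of each of the 78 probe sets of the 46 members; colours join the probe sets of 1 gene that rose, filled where the probe set was used and open where not. The dashed line is the mark of 73.0. The NRP1 probe sets run from 0.18 to 2.0, and the open circles of EFNA5 and PLXNB2, left of the line, lie at -0.01 and -0.21.

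The 2 hairpins against PGC1α were then set side by side in a fit with 4 groups; they share the control arrays. With hairpin 65, 12 members were higher (26.1% of the 46, against 13.0% of all genes) and 1 lower (10.4% of all genes). With hairpin 66, 10 were higher (11.2% of all genes) and 2 lower (10.9% of all genes). NRP1 had log2 changes of 1.97 with hairpin 65 and 2.04 with hairpin 66, SEMA3A 1.13 and 1.27, EFNA5 0.64 and 0.70, PLXNB2 0.50 and 0.38, EPHA2 0.34 and 0.44, and SEMA3C 0.28 and 0.24. All 12 of these values passed the test (limma adjusted p from 5.79e-06 to 0.0226). The SEMA3C values are set against the mean of 2 control hairpins that differed from each other, with all knockdown arrays between them. In the 2-arm fit SEMA3C did not pass (limma adjusted p = 0.501), and against shGFP alone its log2 change was -0.24. The 1 lower with hairpin 65 was EPHB6, an Eph receptor without kinase activity, and the 2 lower with hairpin 66 were SEMA6A and SEMA6B.

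The totals called, 13 with hairpin 65 and 12 with hairpin 66, were lower when either array of that hairpin was left out. The share of all genes called in those fits was not computed. Between hairpin 65 and hairpin 66, limma called 0 members and 0% of all genes; at an unadjusted p under 0.05 the counts were 4 members and 849 genes. EPHB6 read 34.8 and 33.2 with hairpin 65, 48.8 and 46.7 with hairpin 66, and 37.5 to 46.2 in the controls. Its hairpins thus lay on opposite sides of the control range, a log2 difference of -0.49 between them (adjusted p = 0.581), at signals under the mark.

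The control hairpins differed from each other in 8 of the 46 members, 17.4%, against 7.85% of all genes. Higher in shGFP than in shScr were SEMA3C (2.01-fold, limma adjusted p = 3.07e-04), PLXNA1 (1.53-fold, 0.00104), EFNB2 (1.45-fold, 0.0173), SEMA3A (1.41-fold, 0.0152), SEMA5A (1.38-fold, 0.00927) and SEMA4G (1.34-fold, 0.0229). Lower in shGFP were NRP1 (1.51-fold, 0.00689) and EFNA1 (1.43-fold, 0.00196). SEMA5A, a transmembrane semaphorin with thrombospondin repeats, read 312 and 334 with shGFP, 227 and 240 with shScr, and 294 to 328 in the knockdown, which overlapped shGFP. SEMA4G read 77.9 and 79.1 with shGFP, 58.4 and 59.0 with shScr, and 64.6 to 75.5 in the knockdown, under the mark on average.

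For NRP1 and SEMA3A, the knockdown arrays lay above both control hairpins, whose own log2 differences were -0.59 and 0.50. In SEMA5A a second probe set gave a like difference between the controls (log2 0.46, limma over all probe sets, adjusted p = 0.0179). With the same fit, second probe sets of SEMA4G (log2 0.39, adjusted p = 0.0637), NRP1 (-0.25, 0.231) and EFNB2 (0.17, 0.523) did not pass. The number of members called between the controls was lower when any 1 control array was left out. The share of all genes called in those fits was not computed. Against shGFP alone, 9 members were higher and 4 lower (EFNB2, EFNB3, PLXNA1 and SEMA3C), beside 13.2% and 12.7% of all genes. Against shScr alone, 13 were higher and 0 lower, beside 10.8% and 8.35% of all genes. The count of members that fell thus depended on the control hairpin.

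**Figure D5:**
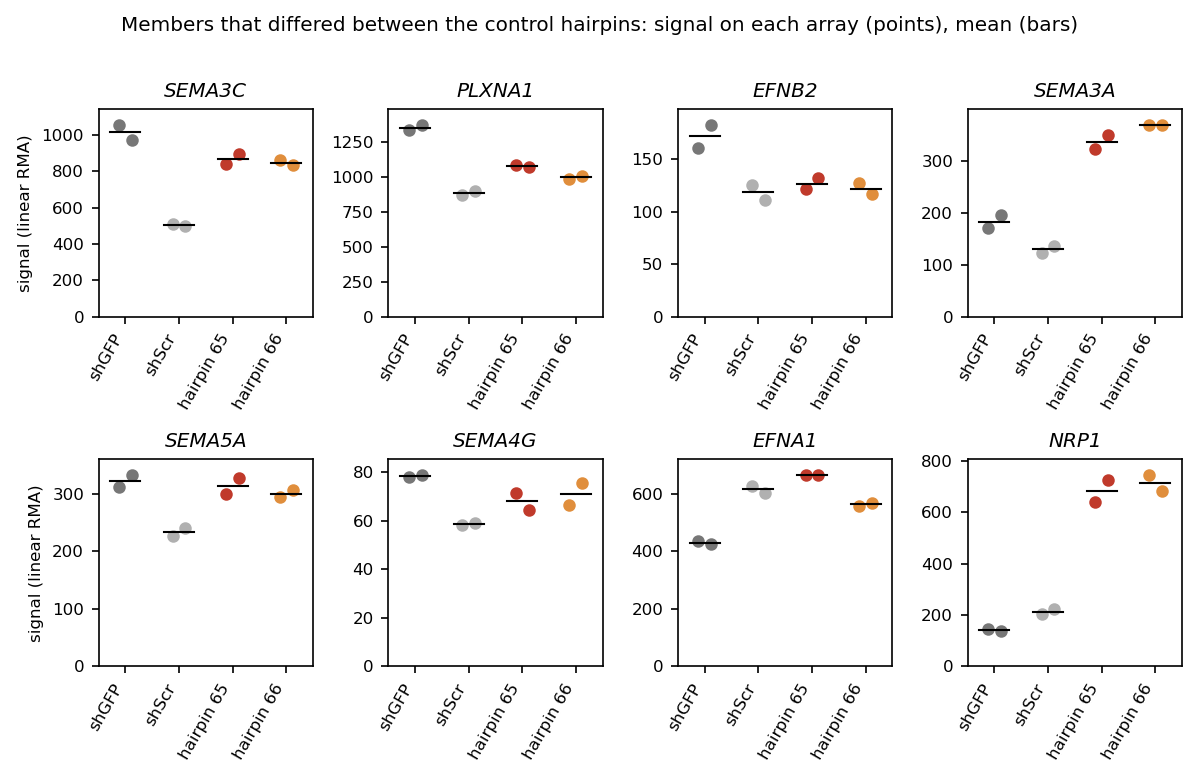
Signal on a linear scale (vertical axis, from 0) of the 8 members that differed between the control hairpins, on each of 2 arrays for each of 4 hairpins (points), with the mean of each hairpin (bars). SEMA3C and PLXNA1 in the knockdown arrays lie between shGFP and shScr, while NRP1 and SEMA3A lie above both.

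Genes that act with these ligands and receptors came from 3 further lists. Of 36 measured partners and effectors of semaphorins and plexins, 7 rose and 5 fell, a median log2 change of 0.05. RRAS, a small GTPase on which plexins act, rose 1.48-fold (187 to 278, limma adjusted p = 2.00e-04), and PTK2, the focal adhesion kinase, rose 1.45-fold (808 to 1169, adjusted p = 6.40e-04). KDR, a VEGF receptor that pairs with NRP1, rose 1.42-fold at signals under the mark (46.4 to 65.8, adjusted p = 0.00125). DPYSL3, a collapsin response mediator of the kind that relays SEMA3A signals, fell by 0.53 on the log2 scale (353 to 244, adjusted p = 1.80e-04).

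Of 33 measured effectors of Eph receptors and ephrins, 6 rose and 2 fell, a median of 0.02. TIAM1, an exchange factor for the GTPase Rac, rose 1.58-fold (449 to 712, limma adjusted p = 1.31e-04). SDCBP, the scaffold syntenin that binds B ephrins, fell by 0.55 on the log2 scale (8087 to 5510, adjusted p = 5.42e-04). ADAM10, a protease that cleaves ephrins, rose 1.26-fold (adjusted p = 0.00292) and the kinase ABL1 1.19-fold (adjusted p = 0.0171).

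Of 18 measured ligands and receptors of other guidance families, 4 rose and 1 fell, a median of 0.02. FLRT3, a membrane protein that binds the netrin receptor UNC5B, rose 2.52-fold (311 to 782, limma adjusted p = 1.11e-06). FLRT1 (1.43-fold, adjusted p = 0.00244) and the slit receptor ROBO1 (1.22-fold, adjusted p = 0.00898) rose too, and the ligand SLIT3 fell by 0.25 on the log2 scale (adjusted p = 0.0131). The shares called in the 3 lists, 33.3%, 24.2% and 27.8%, stood beside 22.2% of all genes. The lists were written with earlier results of these data known, so these shares are no test of the pathways.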

How the data were processed

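Total RNA of 8 samples was labelled as biotinylated cRNA. The authors deposited intensity values on a linear scale for 22277 probe sets, made with RMA per the submitters' processing notes (version not stated). Of the probe sets, 19070 had 1 symbol in the platform annotation, and 78 belonged to the members; all 46 symbols were those of RefSeq. Each gene took its probe set of highest mean. The log2 of the values was fitted with limma 3.58.1 (R 4.3.3) over all 11963 genes without a signal filter: 2 arms (6 residual degrees of freedom), or 4 hairpins (4), with Benjamini-Hochberg adjustment and a threshold of 0.05. The members, lists and naming rule (called members in full, those called in other contrasts or among the 12 brightest by group values, and the 4 smallest p in each pathway list) were chosen with earlier results of these data known. Lists were compared by counts and medians only. Whether the 2 arrays of a hairpin hold separate cultures is not given in the sources used here, so their spread may be technical. The p-values of the 4-hairpin fit rest on that spread. Those of the 2-arm fit rest on it and on the differences between hairpins of an arm. Alternatives covered the choice of probe sets, normalization, variance, low signal, blocks, ACTB as a covariate and each array or hairpin left out. The fit was tested on simulated data. The number of arrays limits the precision. Replicate numbers did not pair the samples (correlations of deviations from -0.107 to 0.0426).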

Additional observations from a re-analysis of the deposited data

Results flagged for a closer look

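In 92 sets of 4 arrays (46 members, 2 arms), 2 held an array far from the other 3 by Dixon's criterion, which flags about 1 set in 20 by chance. PLXNA3 read 93.4 on replicate 2 of hairpin 65, against 84.4 to 85.4 on the other 3 knockdown arrays. SEMA6D read 32.3 on replicate 2 of shGFP, against 25.1 to 25.8 on the other 3 control arrays.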

How the results depend on the processing

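Under 23 alternatives, NRP1, SEMA3A and EFNA5 kept their direction and their call. The number of members that rose, 10 as reported, was 5 with the arrays of each hairpin averaged, 3 with the ACTB difference as a covariate and 5 without hairpin 66, where the share of all genes called, 22.2% as reported, was 7.34%, 4.42% and 12.3%. It ran from 8 to 12 when 1 array was left out, where the share of all genes called ran from 17.6% to 20.8%. The number that fell, 0 as reported, was 4 without the shScr hairpin and ran from 0 to 1 when 1 array was left out. With s_at and x_at probe sets dropped, fewer genes were tested, and 7 of 38 members rose, beside 19.1% of genes called in either direction. SEMA3E and SEMA4F, which have only such probe sets, were not tested there. The hairpin 65 count was 8 and the hairpin 66 count 6, and PLXNB2, left with its dimmer probe set, turned to a log2 change of -0.21. When 1 array was left out, the hairpin 65 count ran from 7 to 11, the hairpin 66 count from 7 to 10 and the count between controls from 3 to 8. With a replicate block 9 members rose; PLXNA3 lost its call. The replicate numbers are shared labels only. Leaving 1 array in a group assumes that it varies like the other groups. The causes of these differences were not tested. Low signal limits the 20 members under the mark.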
